A study of Mus musculus with 6 samples.

Results

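The RNA of 10 cytokines of conventional helper T cells was followed in splenic regulatory T cells (Tregs) after deletion of Zfp335, a zinc finger protein. The 10 genes were chosen by name, as Ifng, Tnf, Il2, Il4, Il5, Il13, Il17a, Il21, Il22 and Csf2, from the 32285 rows of the count table, and all 10 were found. The table holds bulk RNA-Seq counts of 6 libraries of CD4+CD25+ Tregs sorted from spleens of C57BL/6 mice, 3 labelled WT and 3 labelled KO. By the study's methods, KO animals were ERCre Zfp335fl/fl mice, in which a Cre recombinase fused to a modified estrogen receptor is activated by tamoxifen, and WT animals were ERCre mice given the same treatment, whereas the sample labels call the controls wild-type littermates and name no drug. Tamoxifen at 10 mg/mL was injected 3 times from 6 weeks of age, on days 1, 3 and 5, and the mice were killed on day 7. The promoter that drives this Cre, and whether a library came from 1 mouse, are not given in the sources used here. Cre activity was thus not shown to be limited to Tregs.

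Helper T cells are classed by the cytokines they secrete. Th1 cells make IFN-γ and, with other subsets, TNF and IL-2. Th2 cells make IL-4, IL-5 and IL-13, Th17 cells make IL-17A and often IL-22, and follicular helper cells make IL-21. GM-CSF, the product of Csf2, activates myeloid cells. Tregs normally keep most of these genes low, and their transcription in T cells starts after antigen receptor signals through NFAT, AP-1 and NF-κB factors, with lineage factors such as T-bet and GATA-3 setting which gene is opened.

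The libraries held between 133283969 and 209041812 counts, and Zfp335 fell from 120.1 ± 4.67 to 14.8 ± 0.451 CPM (counts scaled to a common library size, SD, n = 3). Counts of 4 were more frequent in the table (2579 entries) than counts of 1 (620 entries), so that the number of independent fragments behind a small count is not known. Of 5 Treg markers, 2 were called higher and 2 lower in KO. Those higher were Ctla4 (log2 fold change 0.65, edgeR adjusted p = 9.56e-09) and Tnfrsf18 (0.12, edgeR adjusted p = 0.0434), named with their values known. Those lower were Foxp3 and Il2ra. Foxp3, the defining factor of Tregs, fell from 1136 ± 17.4 to 1052 ± 9.24 CPM (log2 fold change -0.11, edgeR adjusted p = 0.0163), a call that was lost without KO replicate 1, 2 or 3 (-0.12, -0.11 and -0.11). RNA of other cells moved with the groups. All 5 B cell markers were lower in KO (summed level 42.6 to 45.8 CPM in WT and 16.3 to 17.4 CPM in KO), as were 4 of 5 neutrophil markers (11.4 to 15.4 and 0.478 to 0.887 CPM) and all 5 red cell markers. Of 5 macrophage and monocyte markers (30.5 to 34.2 CPM in sum in WT and 18.8 to 21.0 CPM in KO), 2 were lower, Cd14 and Lyz2, which neutrophils also express. Lyz2 alone went from 19.7 to 7.36 CPM, whereas Csf1r, at 8.80 CPM in WT and 10.3 CPM in KO, lay higher in every KO library without being called. NK cell markers, whose cells make IFN-γ, were lower for 2 of 4 genes (10.2 to 10.3 CPM in WT and 8.40 to 9.50 CPM in KO). Neither of the 2 CD8 T cell markers and none of the 4 markers of conventional CD4 T cells, which a CD25+ gate can hold, was called by edgeR. At an unadjusted p under 0.05, 1 of these 6 genes passed, Il7r, which was lower in KO (named with its values known). The conventional CD4 markers summed to 957.1 to 987.5 CPM in WT and 962.9 to 970.1 CPM in KO. This sum holds opposite moves, named with their values known. Satb1 lay higher in every KO library (442.6 CPM in WT and 460.8 CPM in KO on average) and Il7r lower (291.5 and 275.7 CPM). The sum therefore does not show that the share of these cells was unchanged. Markers of mast cells and basophils, cells that can make IL-4 and IL-13, summed to 0.624 to 0.951 CPM in WT and 0.230 to 0.598 CPM in KO, with Ms4a2 at 0 in all KO libraries. None of the 3 tested was called by edgeR. Prss34, named with its values known, passed an unadjusted p under 0.05 (log2 fold change -0.95) and was called without WT replicate 3 (-1.09, edgeR adjusted p = 0.0460). Xist, the RNA that coats the inactive X chromosome, is named here after its values were seen. It was at most 0.424 CPM in WT and at least 123.9 CPM in KO. A difference in sex of the mice would follow the groups in this way and cannot be told apart from the deletion here. The part of these differences in the cytokine values was not tested, and in bulk RNA fewer cells of a type and less RNA per cell cannot be told apart.

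Tnf was the most abundant of the 10 cytokines when levels were set per transcript length, as CPM per kb of the longest coding transcript. It stood at 21.3 ± 1.10 CPM per kb in WT (SD, n = 3 libraries). Ifng followed at 7.40 ± 0.760, Il17a at 3.68 ± 0.0984 and Il21 at 2.24 ± 0.257 CPM per kb, and none of these neighbours in the order overlapped in WT. Il22, Il4 and Il2 shared the next level, between 0.951 and 0.987 CPM per kb on average, and their libraries overlapped. The levels of Il4 and Il21 depend on the length chosen. Their annotated exons cover 1227 and 5259 bases, against 605 and 3072 in the longest coding transcript. Il13 at 0.522 and Csf2 at 0.483 CPM per kb overlapped as well. Il5, a growth factor of eosinophils, was close to absent, at 0.0125 ± 0.0217 CPM per kb. In KO the first 5 genes kept this order, and Il2 and Il4 exchanged places with overlapping libraries.

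**Figure D1:**
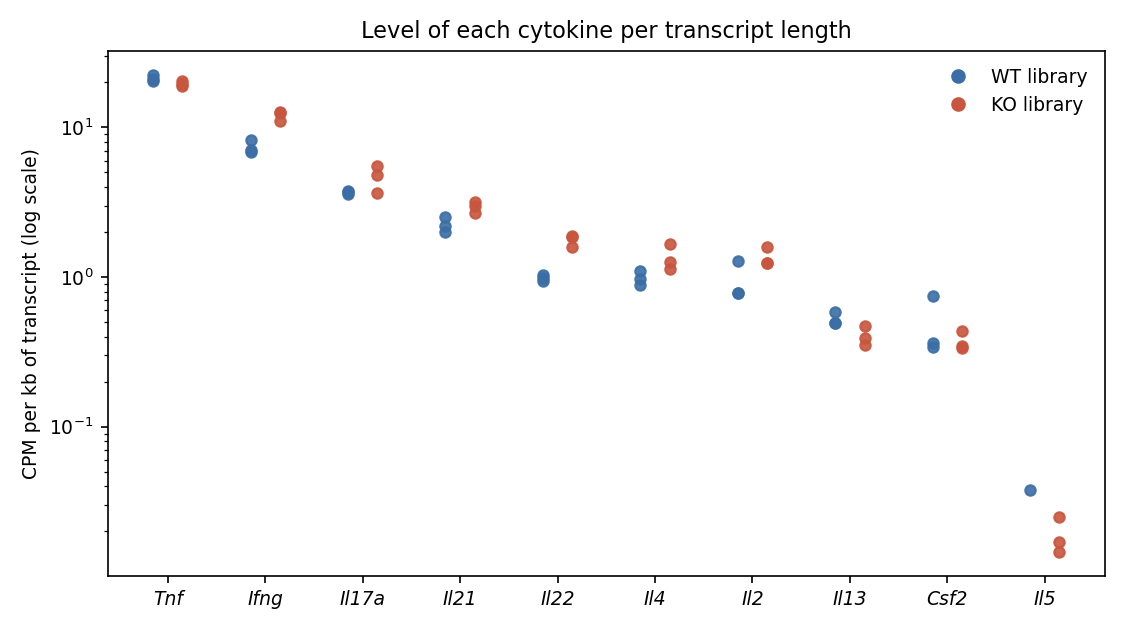
Level of the 10 cytokines in CPM per kb of the longest coding transcript (vertical axis, log scale), with each point 1 library, WT in blue and KO in red; genes are ordered by their WT mean. Tnf lay highest and Il5 lowest in both groups, and the 2 WT libraries without an Il5 count are not drawn.

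With Zfp335 deleted, 3 of the 9 cytokines that passed the expression filter were higher, and none was lower, at an adjusted p under 0.05 in edgeR's quasi-likelihood test over 17307 genes. DESeq2 and limma-voom also called none lower. These were Ifng, Il22 and Il21. Among all genes tested, 12.0% were called higher and 12.1% lower, 24.1% in all, and no test was made of the list as a whole. The even split of all genes depends on the scaling, since 1622 genes were called higher and 2575 lower with library size alone, in place of 2082 and 2088. At an unadjusted p under 0.05, 5 of the 9 cytokines were higher and 1, Tnf, was lower, against 17.1% and 17.6% of all genes. The median log2 fold change of the 9 genes was 0.41, against -0.0042 over all genes tested. Il5 did not pass the filter and was not part of this test. With the cutoffs of the study's methods (1.5-fold, p under 0.05 and adjusted p under 0.1), Ifng and Il22 were called, against 2.58% of all genes called higher and 4.37% called lower.

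Ifng, which encodes the main Th1 cytokine and macrophage activator, had 1818, 1585 and 1144 counts in WT replicates 1, 2 and 3 and 2739, 2754 and 2897 counts in KO replicates 1, 2 and 3. On the scaled level this was 9.99, 8.32 and 8.50 CPM in WT and 15.4, 13.3 and 15.04 CPM in KO. Every KO library lay above every WT library, as was the case for 19.3% of all genes tested. The log2 fold change was 0.70 (SE 0.083, edgeR adjusted p = 4.45e-05), a 1.62-fold rise. Ifng lies on the plus strand of chromosome 10 of GRCm38 (mm10) from 118441046 to 118445892, in 3 exon blocks. On the same strand the annotation places Gm49751, a transcript not listed in the count table, which shares 19.9% of the 50-base stretches of Ifng.

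Il22, whose product acts on epithelial cells of gut and skin, had 190, 219 and 147 counts in WT replicates 1, 2 and 3. KO replicates 1, 2 and 3 had 314, 423 and 401 counts. The scaled levels were 1.04, 1.15 and 1.09 CPM in WT and 1.76, 2.04 and 2.08 CPM in KO. All KO libraries were again above those of WT, as for 19.3% of all genes tested, and WT libraries differed little among themselves. The log2 fold change of 0.84 (SE 0.153, edgeR adjusted p = 0.00135), or 1.79-fold, was the highest of the 9 genes tested. Il22 lies on chromosome 10 from 118204942 to 118210047, with its start 236.1 kb from that of Ifng. Its counts are less certain than those of other cytokines, since 41.0% of its 50-base stretches also occur in Iltifb, a near copy 90.1 kb away. Iltifb had 30 to 51 counts in WT and 40 to 81 counts in KO. With both genes summed, which was tried only once the values were known, it was 0.77 (SE 0.144, edgeR adjusted p = 0.00167).

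Il21, the cytokine of follicular helper cells that drives germinal center B cells, had 1121, 1289 and 1040 counts in WT replicates 1, 2 and 3. In KO replicates 1, 2 and 3 it had 1477, 1912 and 1863 counts. This corresponded to 6.16, 6.77 and 7.73 CPM in WT and 8.28, 9.22 and 9.67 CPM in KO. All KO libraries were above all WT libraries, as for 19.3% of all genes tested, and WT replicate 3 came closest to KO. The difference on the log2 scale was 0.41 (SE 0.091, edgeR adjusted p = 0.00524), a 1.33-fold rise that is below the 1.5-fold cutoff. Il21 lies on the minus strand of chromosome 3 from 37222759 to 37232636, and Gm12534 on the other strand shares 7.31% of its 50-base stretches. For each of these 3 genes the exact permutation test on CPM gave a two-sided p of 0.1, the smallest that 3 against 3 libraries allow. Groups that do not overlap always give this value, and Il4 and Il13, which were not called, had it as well. Ifng, Il22 and Il21 kept their call in each of the 6 fits that left out 1 library.

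The stretches before the annotated starts of the 3 genes that rose are shown to let their sequence be compared, since these genes moved the same way. They come from RefSeq promoter sequences of GRCm38.p6, each 5′ to 3′ on the strand of its gene, 250 bases long (228 for Il22) and ending at the base before the GENCODE start. The windows are chr10:118440796-118441045 on the plus strand for Ifng, chr10:118204714-118204941 on the plus strand for Il22 and chr3:37232637-37232886 on the minus strand for Il21. Capitals mark GGAAA, the core of NFAT sites, on either strand.
Ifng: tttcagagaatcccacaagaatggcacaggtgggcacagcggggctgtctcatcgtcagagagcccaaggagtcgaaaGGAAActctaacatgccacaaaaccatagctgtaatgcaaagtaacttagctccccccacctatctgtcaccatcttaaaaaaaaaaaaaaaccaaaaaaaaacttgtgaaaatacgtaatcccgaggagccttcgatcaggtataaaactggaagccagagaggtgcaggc
Il22: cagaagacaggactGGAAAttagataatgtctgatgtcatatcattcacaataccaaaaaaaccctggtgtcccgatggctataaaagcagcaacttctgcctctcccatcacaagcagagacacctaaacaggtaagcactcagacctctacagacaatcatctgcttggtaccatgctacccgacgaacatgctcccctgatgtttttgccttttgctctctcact
Il21: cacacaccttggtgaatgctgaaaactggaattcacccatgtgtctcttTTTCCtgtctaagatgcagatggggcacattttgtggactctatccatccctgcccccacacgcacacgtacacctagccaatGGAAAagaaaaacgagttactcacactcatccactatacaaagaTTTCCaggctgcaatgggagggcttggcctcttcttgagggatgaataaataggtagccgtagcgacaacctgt
GGAAA occurred 3 times in the Il21 stretch and 1 time in each of the others. In the 250 bases before the first listed RefSeq start, the median over 27025 genes was 1, and 6.5% had at least 3. Of the tested cytokines not called, Tnf had 3, Il13 4, Il2 2, Csf2 2, and Il4 and Il17a 0. Another start of Il4 had 5. The Ifng and Il22 stretches also hold TATAAA, the letters of a TATA box, which the Il21 stretch does not. The match lies near the end of the Ifng stretch but far from the end of the Il22 stretch. Neither was taken as a working TATA box.

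**Figure D2:**
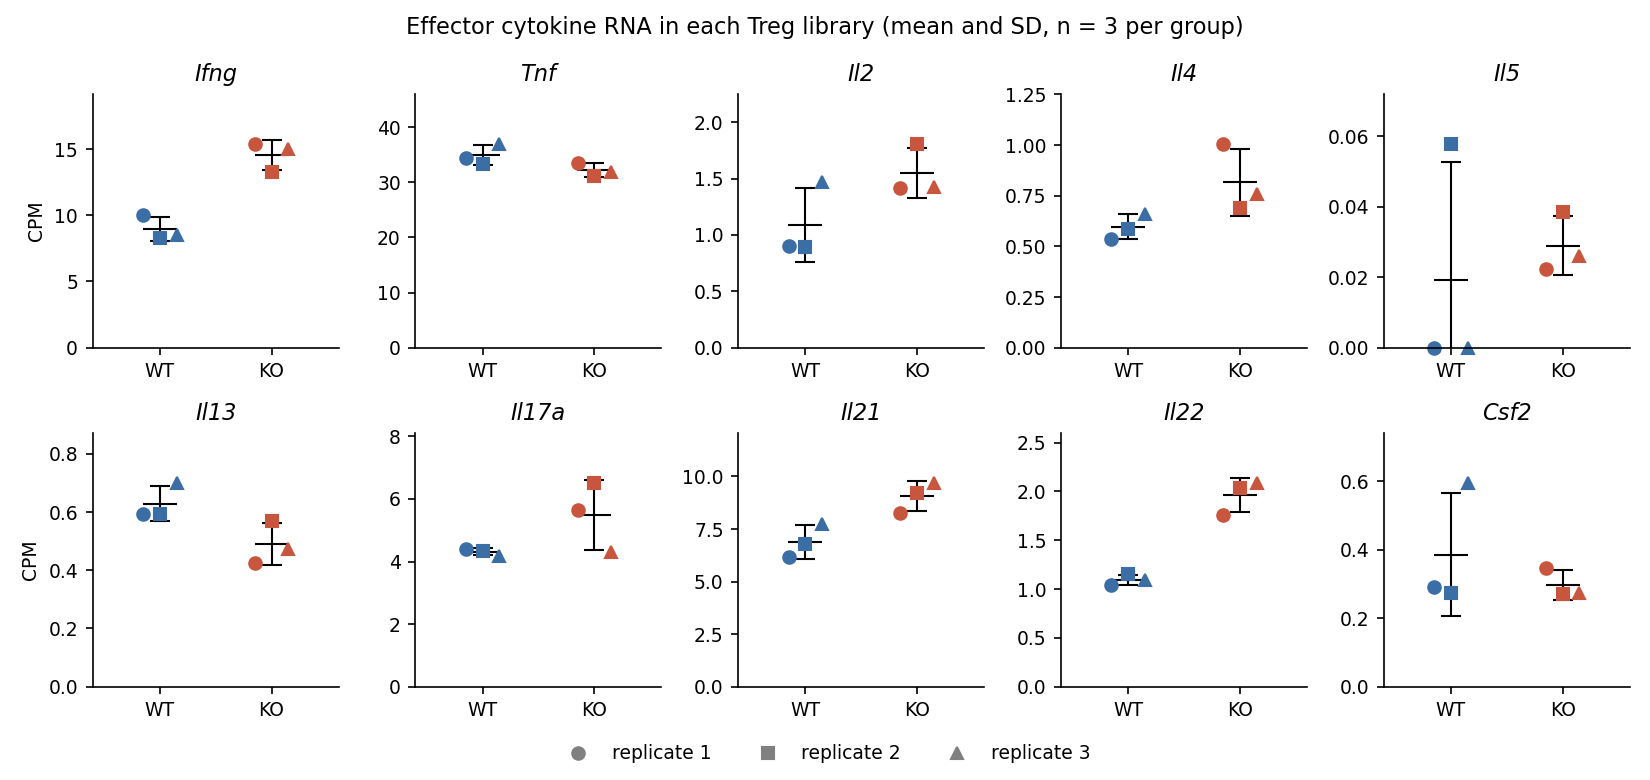
CPM of each cytokine (vertical axes, each from 0) in WT (blue) and KO (red) libraries, with markers for the replicate number and black bars for the mean and SD of 3 libraries; the SD of Il5 in WT runs below 0 and is cut at the axis. KO points lay above all WT points for Ifng, Il4, Il21 and Il22 and below them for Il13. Among all genes tested, 19.3% lay above and 19.1% below in this way.

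The 2 other cytokines shared by Th1 cells were not called. Tnf, encoding a broadly inflammatory cytokine, had 6260, 6358 and 4964 counts in WT replicates 1, 2 and 3 and 5989, 6442 and 6152 counts in KO replicates 1, 2 and 3. Scaled levels were 34.4, 33.4 and 36.9 CPM in WT and 33.6, 31.1 and 31.9 CPM in KO, and the groups overlapped. Its estimate on the log2 scale was -0.11 (SE 0.050, edgeR adjusted p = 0.128). Il2, the T cell growth factor that Tregs consume through CD25 and barely produce, had 164, 170 and 198 counts in WT and 252, 374 and 275 counts in KO. WT replicate 3, at 1.47 CPM, was above KO replicates 1 and 3, at 1.41 and 1.43 CPM, while the other WT libraries were at 0.901 and 0.892 CPM. Its log2 fold change was 0.57 (SE 0.207, edgeR adjusted p = 0.0655). It passed without WT replicate 3 (0.80, edgeR adjusted p = 0.0112) and in none of the other 5 fits that left out 1 library. Il2 shares 12.6% of its 50-base stretches with Ntan1, so its counts are also less certain, and it overlaps Adad1 on the other strand.

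Of the 3 Th2 cytokines, Il4 and Il13 were tested and not called, with estimates of opposite sign, and Il5 was not tested. Il4, which drives class switching in B cells, had 98, 112 and 89 counts in WT and 179, 143 and 146 counts in KO. Its KO libraries, from 0.690 to 1.004 CPM, were all above those of WT, from 0.539 to 0.661 CPM, as were 19.3% of all genes tested. On the log2 scale the change was 0.46 (SE 0.234, edgeR adjusted p = 0.190). Il13, which acts on mucosal epithelium, had 108, 113 and 94 counts in WT and 76, 118 and 91 counts in KO. Here all KO libraries, from 0.426 to 0.569 CPM, were below those of WT, from 0.593 to 0.698 CPM, as were 19.1% of all genes. Its log2 fold change was -0.33 (SE 0.243, edgeR adjusted p = 0.367). Il5 had 0, 11 and 0 counts in WT and 4, 8 and 5 counts in KO, and no fold change is given at this level (exact permutation test on CPM, two-sided p = 0.6). It shares 21.6% of its 50-base stretches with Gm12214 on the other strand.

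Of the 2 Th17 cytokines, Il22 was called and Il17a was not, and the difference between them was not tested. Il17a, which recruits neutrophils through epithelial and stromal cells, had 802, 827 and 563 counts in WT and 1008, 1348 and 826 counts in KO. The WT libraries lay close together at 4.41, 4.34 and 4.18 CPM, while KO ranged widely, with 5.65, 6.50 and 4.29 CPM. KO replicate 3 was thus within the WT range. Its log2 fold change was 0.35 (SE 0.133, edgeR adjusted p = 0.0790). Without KO replicate 3 it was 0.50 (edgeR adjusted p = 0.00680), and without KO replicate 2 it was 0.20 (edgeR adjusted p = 0.346). Csf2 had 53, 52 and 80 counts in WT and 62, 56 and 53 counts in KO. WT replicate 3, at 0.594 CPM, stood apart from the other 5 libraries, which lay between 0.270 and 0.348 CPM. The log2 fold change was -0.30 (SE 0.366, edgeR adjusted p = 0.611), and without WT replicate 3 it was 0.070 (edgeR adjusted p = 0.929).

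**Figure D3:**
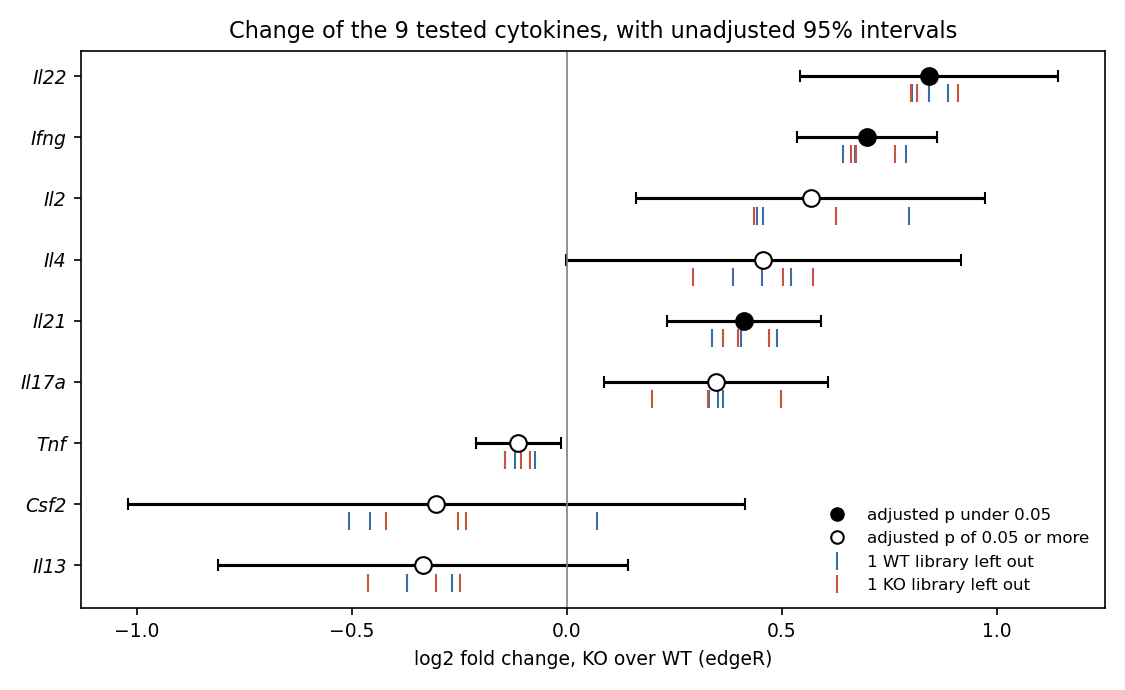
Log2 fold change of KO over WT (horizontal axis) for the 9 tested cytokines, with points for the edgeR estimate, bars for 95% intervals from its SE before adjustment and ticks for the fits that each left out 1 library. Il22, Ifng and Il21 (filled points) were called, and the ticks of Csf2 lie on both sides of 0.

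The libraries of a group did not rank alike across the cytokines. Among KO libraries, replicate 2 was highest for Il2, Il5, Il13 and Il17a and lowest for Ifng, Tnf, Il4 and Csf2. Among WT libraries, replicate 3, the library with the fewest counts, was highest for Tnf, Il2, Il4, Il13, Il21 and Csf2 and lowest for Il17a, and it had no count of Il5. The coefficient of variation in WT ran from 2.67% for Il17a to 46.7% for Csf2 among the 9 tested genes, and in KO from 3.98% for Tnf to 20.3% for Il17a. Counts of all 10 genes summed to between 56.4 and 61.8 CPM in WT and between 65.5 and 67.9 CPM in KO. Tnf made up 59.0% to 59.7% of these counts in WT and 47.4% to 49.5% in KO. The share of Ifng was 13.8% to 17.1% in WT and 20.3% to 22.8% in KO.

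Of 18 other helper T cell cytokines, 14 were tested and 7 were called, against 24.1% of all genes tested. Of these, 6 were higher in KO and 1 was lower, and the median log2 fold change of the 14 was 0.16. The largest rise was in Il10, the suppressive cytokine of effector Tregs, from 19.8 ± 0.860 to 37.7 ± 1.24 CPM (SD, n = 3, log2 fold change 0.93, edgeR adjusted p = 3.00e-08). Areg, a tissue repair factor, had a log2 fold change of 0.84 (edgeR adjusted p = 1.06e-06). Tnfsf8, encoding CD30 ligand, rose by 0.79 and Fasl, encoding the death receptor ligand, by 0.78. Lif, an IL-6 family cytokine, rose from 14.0 ± 0.158 to 21.6 ± 0.498 CPM. Tnfsf11, encoding RANKL, rose by 0.32 on the log2 scale and is named here after its values were seen. Osm, also of the IL-6 family, fell from 25.3 ± 0.994 to 16.5 ± 0.313 CPM (log2 fold change -0.61, edgeR adjusted p = 1.89e-06). Il17f, a Th17 cytokine whose start lies 59.7 kb from that of Il17a, was at 2.26 ± 0.171 CPM in WT and 2.75 ± 0.284 CPM in KO and was not called (log2 fold change 0.29, edgeR adjusted p = 0.118).

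Receptors of the 10 cytokines moved in both directions. Of 17 tested in a list of 19, 3 were called higher and 5 lower, against 12.0% and 12.1% of all genes. Their median log2 fold change was 0.037. Il17rc, a chain of the IL-17A receptor, fell from 1.66 ± 0.0940 to 0.969 ± 0.180 CPM (log2 fold change -0.78, edgeR adjusted p = 0.00520). Il22ra2, which encodes a soluble protein that binds IL-22, had 0 counts in each WT library and 37, 16 and 19 counts in the KO libraries. It was not called without WT replicate 2 or KO replicate 1 (edgeR adjusted p = 0.0514 and 0.0678). The median does not change when this gene is set to the value that 3 counts in each WT library would give. The remaining pair of receptors called higher, named after their values were seen, were a chain of the IFN-γ receptor and the IL-21 receptor. Ifngr2 rose by 0.41 (edgeR adjusted p = 4.85e-06) and Il21r by 0.14 (edgeR adjusted p = 0.00617) on the log2 scale. The other 4 called lower, also named with values known, were Il2ra (-0.15), which encodes the CD25 used for sorting, Il2rg (-0.10), the shared gamma chain, Il10rb (-0.12), a chain of the IL-22 receptor, and Csf2rb (-0.53), a chain of the GM-CSF receptor. Their edgeR adjusted p values were 0.00658, 0.0326, 0.0290 and 0.0325. Il2ra lost its call without KO replicate 2 (-0.14). For Il2rg and Il10rb this held without WT replicate 2 and without any one KO library, and for Csf2rb without WT replicate 1 or 2 or KO replicate 1 or 2.

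Of 23 transcription factors of helper lineages and cytokine genes, 16 were called, 11 higher and 5 lower, against 12.0% and 12.1% of all genes. Their median log2 fold change was 0.096. Rel, the NF-κB subunit c-Rel, rose from 159.5 ± 2.63 to 300.4 ± 12.1 CPM (log2 fold change 0.91, edgeR adjusted p = 1.56e-09). It was the only one of the 23 with a called change of at least 1.5-fold. The factors described next are named after their values were seen and do not cover every factor that defines a lineage. Bcl6 of follicular helper cells rose from 30.5 ± 0.665 to 38.5 ± 1.30 CPM (log2 fold change 0.34, edgeR adjusted p = 0.000108). Tbx21, encoding T-bet of Th1 cells, had 11.01 ± 0.125 CPM (WT) and 10.2 ± 1.11 CPM (KO) (log2 fold change -0.10, edgeR adjusted p = 0.398). Eomes, which is related to T-bet, fell by 0.35 on the log2 scale (edgeR adjusted p = 0.00180). Gata3 of Th2 cells had 141.8 ± 9.01 CPM (WT) and 151.5 ± 4.14 CPM (KO) (log2 fold change 0.096, edgeR adjusted p = 0.143), and passed without WT replicate 3 (0.14, edgeR adjusted p = 0.0207). Ahr, a ligand-activated factor known to act at Il22, rose from 31.9 ± 1.74 to 42.6 ± 1.63 CPM (log2 fold change 0.42, edgeR adjusted p = 4.17e-05). Junb, an AP-1 subunit, rose by 0.53 on the log2 scale. Jun, also an AP-1 subunit, rose by 0.17 (edgeR adjusted p = 0.00628). Fos, another, was lower in KO (log2 fold change -0.22, edgeR adjusted p = 0.000211). The NF-κB gene Nfkb1 was not called (log2 fold change 0.072, edgeR adjusted p = 0.103).

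**Figure D4:**
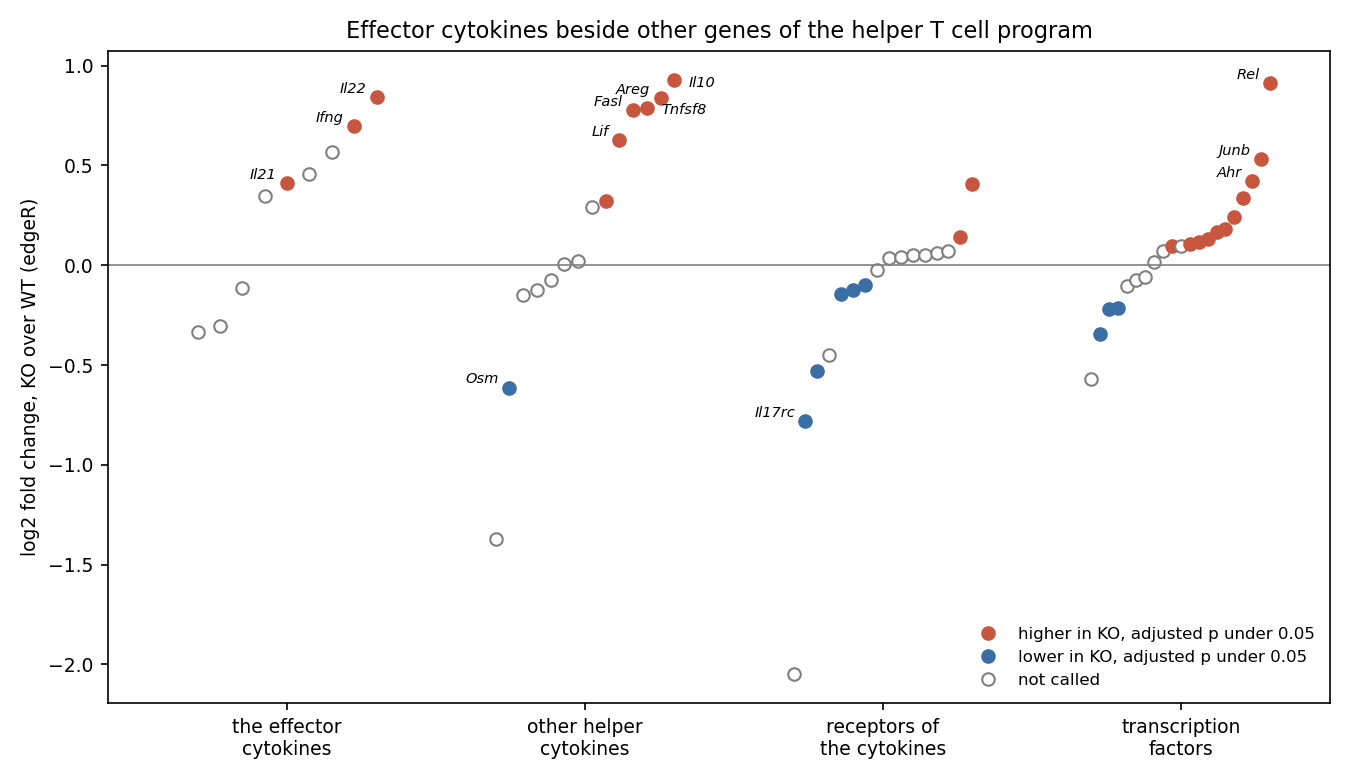
Log2 fold change of KO over WT (vertical axis) of each tested gene in the lists of effector cytokines, other cytokines, receptors and transcription factors, ordered within a list, with red points for genes called higher, blue for genes called lower and open points for genes not called; Il22ra2, at 0 in WT, and 2 of the transcription factors are not drawn. The 3 called cytokines lie on the higher side, the receptors on both sides, and Rel is the highest of the transcription factors.

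Most of the 10 genes sit in clusters, and the genes of a cluster did not share a call throughout. Ifng and Il22 on chromosome 10 both rose. Ifngas1, a noncoding RNA from the other strand whose start is 115.5 kb from that of Ifng, had the opposite sign, at 0.520 ± 0.1198 CPM in WT and 0.256 ± 0.0522 CPM in KO. Its log2 fold change was -1.06 (SE 0.314, edgeR adjusted p = 0.0264). Its call was lost when WT replicate 2 (-0.84), KO replicate 2 (-1.02) or KO replicate 3 (-0.95) was left out. On chromosome 3, Il21 rose and Il2, with its start 106.7 kb away, was not called. The starts of Il4, Il13, Il5 and Csf2 lie within 631.0 kb on chromosome 11, where Il5 was not tested and the other 3 were not called, nor was Rad50, which lies between Il13 and Il5 and holds control elements of the Th2 cytokines (log2 fold change -0.032, edgeR adjusted p = 0.619). Lta, whose start is 3.3 kb from that of Tnf on chromosome 17, was likewise not called (log2 fold change -0.15, edgeR adjusted p = 0.106). It passed in the fit without WT replicate 1 (-0.22, edgeR adjusted p = 0.00318). Of the 23 neighbouring genes listed, 21 were tested, 2 were called higher and 1, Ifngas1, lower, against 12.0% and 12.1% of all genes.

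Sequence features that the choice of the 10 genes did not use were also counted. Each transcript had AUUUA elements, as did 65.2% of protein-coding genes with a 3′ UTR. Such elements are bound by proteins that shorten the life of cytokine mRNA. These were counted as ATTTA in the longest annotated 3′ UTR of GENCODE. There were from 2 in Il4 to 9 in Il21 and Csf2, with 6 in Ifng, 6 in Il22 and 7 in Il17a. Of the 10 genes, 8 had at least 5 such elements, against 21.6% of 21022 protein-coding genes with a 3′ UTR. Called and uncalled cytokines both carried them. In the 250 bases before any RefSeq start of a gene, searched on both strands, GGAAA was present for 9 of the 10 genes, Il17a being the exception, against 58.8% of 27025 genes. TATAAA was present for 6, against 14.3% of genes. TTCNNNGAA, a STAT motif, was found only before Ifng (8.1% of genes), GCGTG, the core of AHR sites, only before Il21 (30.9%) and TGANTCA, an AP-1 motif, only before Il17a (7.8%). GGGNNTTCC, a short form of the NF-κB motif, was found before none (5.6%), and longer forms were not searched. Matches of different motifs were allowed to overlap, and a match was not taken as a bound site.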

How the data were processed

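Tregs of 3 WT and 3 KO libraries were analyzed from 1 table of raw counts per gene symbol. The authors deposited these counts without normalization, and per the labels the submitters' processing notes name HISAT2, DESeq2 and mm10 without their roles. The counter, annotation and strand setting are not given in the sources used here, so that reads of overlapping genes on opposite strands cannot be told apart. Where a symbol was repeated (40 symbols), it was given to its most abundant row.

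Tests used R 4.3.3 and edgeR 4.0.16 (TMM scaling, filterByExpr, robust quasi-likelihood F test of the newer method, Benjamini-Hochberg adjustment over 17307 genes). Standard errors were derived from the F statistic. CPM used TMM-scaled library sizes. The threshold for a call was an adjusted p of 0.05. Alternatives used DESeq2 1.42.0, limma 3.58.1 (voom), other scalings and filters, the replicate number as a block and each library left out. The procedure was tested on simulated data. The labels do not say that libraries are separate animals, so p-values measure only the spread between these libraries.

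The members and lists were chosen with earlier results of these data known. Named in the text are all 10 members, Zfp335, called genes of the other lists with at least 1.5-fold change (the 3 with the smallest p where a list had none), neighbours beside their member, and genes marked as named after their values were seen. Gene positions, transcript lengths and 3′ UTRs came from GENCODE M21 (GRCm38, the build called mm10) and promoters from RefSeq. To find shared sequence, all 50-base stretches of a transcript were searched in transcripts of other genes on either strand. No column was left out. The values of 2 listed transcription factors are not reported here.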

Additional observations from a re-analysis of the deposited data

How the results depend on the processing

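Over 19 alternatives, of which counts divided by 4 and the sum of Il22 with Iltifb were added after the data were seen, Ifng, Il22 and Il21 were called higher in KO in each fit run for them, with adjusted p up to 0.000966, 0.00896 and 0.0335, except that the 1.5-fold cutoff of the study's methods left out Il21. Il4, Il13, Tnf and Csf2 were called in none. Single-gene fits numbered 729 and covered 43 of the tested genes whose values are given. Of these fits, 700 stayed on the same side of the threshold with the same sign. The only change of sign among these was that of Csf2, which ran from -0.51 to 0.070 when 1 library was left out and was 0.070 without WT replicate 3. Called cytokines numbered from 3 to 4 in the fits that left out 1 library and from 2 to 4 in the others.

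With the cutoffs of the study's methods, 1203 genes were called (446 higher and 757 lower) in place of 4170 (2082 and 2088), and in the other lists 11 (7 higher and 4 lower) in place of 34 (22 and 12). Leaving out 1 library gave from 2740 to 4996 genes (1341 to 2495 higher, and 1399 to 2501 lower), with the fewest without WT replicate 2, and from 7 to 13 lower genes in the other lists, with the fewest without KO replicate 2. The cause was not tested, although fits of 5 libraries have fewer samples.

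With the replicate number as a block, 4227 genes were called, Ifng was at 0.70, and Il17a passed (0.36, edgeR adjusted p = 0.0351). The pairing is not given by the labels. Deviations of same-numbered libraries correlated at 0.0284, 0.00819 and 0.0326, and 5 of the 6 libraries correlated best with their own number. Counts too small to test limit Il5.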
